A study of Mus musculus with 12 samples.

Results

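Horizontal basal cells form the quiescent stem cell layer at the floor of the olfactory epithelium, and 10 genes known to mark them are described here: Trp63, Krt5, Krt14, Krt15, Itgb4, Itga6, Col17a1, Egfr, Cd44 and Icam1. They were taken by gene symbol from the platform annotation. Each of the 10 genes had 1 probe set with that symbol alone, and all 10 probe sets passed the filter on low signal (mean log2 signal above 5 over all arrays). They were 10 of 28944 experimental probe sets and of the 28151 that were tested. The 21789 experimental probe sets with a single symbol carried 19938 gene symbols. RNA came from whole main olfactory epithelium (MOE) of mice aged 6 months, pooled from 2 animals per sample. That the samples include both sexes is read from Xist and Y-linked signals, given below, in which no array showed both patterns. The 6 H2be-KO samples came from mice in which a membrane-tethered fluorescent reporter, Gap43-mCherry, replaces the coding sequence of H2be, a histone H2B gene of olfactory neurons. The 6 WT samples came from mice with the intact gene.

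Horizontal basal cells lie flat on the basal lamina beneath the neurons and supporting cells. They divide rarely and are known for rebuilding all cell types of the epithelium after severe injury, while the globose basal cells above them maintain it day to day. Trp63 encodes p63, the transcription factor that holds them in reserve, and its loss releases them to differentiate. Keratins 5 and 14 pair into the filaments of basal cells, and these filaments end at hemidesmosomes, the rivets built of integrin alpha6-beta4 and collagen XVII that fix the cell to laminin. Egfr and Cd44 are surface receptors for growth factors and for hyaluronan, and Icam1 is an adhesion ligand for leukocytes. Krt5, Krt14 and Trp63 also mark basal cells of respiratory and squamous epithelium and of glands, and Egfr, Cd44 and Icam1 are found in many cell types, so that a whole-tissue signal does not belong to horizontal basal cells alone. In such bulk RNA, fewer cells of a type and less RNA per cell cannot be told apart. The labels do not say more about the source of the replicates than the genotype, tissue and age, so p-values measure the spread between these samples.

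Array medians lay between 7.84 and 7.90 (log2). Omp, the marker protein of mature olfactory neurons, averaged 12.90 in H2be-KO samples and 12.90 in WT samples, with an SD of 0.07 in each genotype. The H2be probe set, annotated as H2bc21, averaged 11.65 ± 0.12 over H2be-KO samples, against 11.89 ± 0.17 over WT samples (SD, exact permutation p = 0.0195), so signal remained in the knockout samples, and where its probes lie relative to the replaced sequence was not examined here. Xist, the transcript of the inactive X chromosome, read 11.4 to 11.7 in replicates 1 to 3 of both genotypes and at most 3.89 in the other 6 arrays, in which the Y-linked gene Kdm5d read 8.22 to 8.75. The labels give no sex per array. Amelx, which encodes the enamel protein amelogenin, read 11.87 and 11.66 in H2be-KO replicates 1 and 6 and 5.11 to 6.03 in the other 10 arrays.

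Of the 10 horizontal basal cell genes, 1 had a lower mean signal in H2be-KO with an unadjusted p under 0.05 in limma (Itgb4), and 0 had a higher one. Among all probe sets tested, 1.77% were lower and 3.78% were higher by the same rule. The difference in means was below 0 for 9 of the 10 genes, and the median of the 10 differences was -0.15 on the log2 scale, against a median of 0.02 over all probe sets tested, of which 43.8% lay below 0. By the exact permutation test over arrays, Itgb4 was again the only gene of the 10 called, beside 2.03% of all probe sets called lower. After Benjamini-Hochberg adjustment over all probe sets, limma called 0 of the 10 genes and 0 probe sets in all. The smallest adjusted p of the limma fit was 0.572, while 1563 probe sets had an unadjusted p under 0.05.

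**Figure D1:**
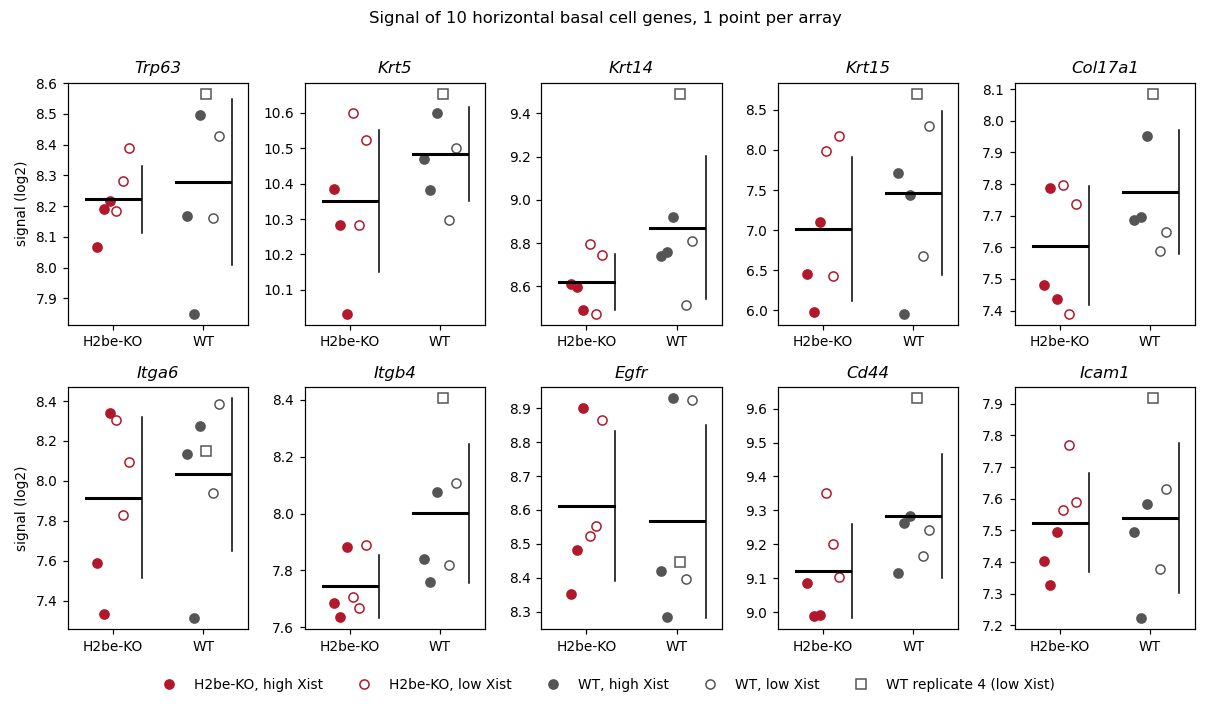
Signal (log2) of the 10 horizontal basal cell genes, with 1 point per array, H2be-KO on the left of each panel and WT on the right, and with its own axis range for each gene. Horizontal bars are means, vertical lines beside them are 1 SD either side (n = 6 each), filled points are arrays with high Xist and the open square is WT replicate 4, which was the highest WT array for 8 of the 10 genes. The Itgb4 panel shows 4 H2be-KO points under the lowest WT point, and in the Krt15 panel both genotypes span more than 2 log2 units.

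**Figure D2:**
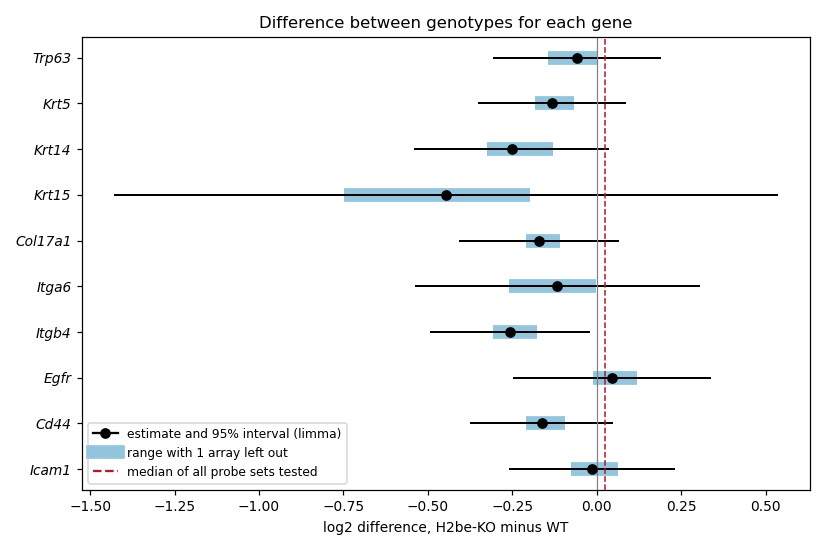
Log2 difference between H2be-KO and WT (H2be-KO minus WT) for each gene, with the 95% interval of the limma fit as a black line and the range over fits that leave out 1 array as a blue bar. The interval of Itgb4 ends below 0 at -0.02, those of the other 9 genes include 0, and the dashed line marks the median of all probe sets tested, 0.02.

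Trp63, the regulator of the reserve state, did not separate the genotypes. Its signal ran between 8.07 and 8.39 with a median of 8.20 in H2be-KO arrays and between 7.85 and 8.57 with a median of 8.30 in WT arrays. The H2be-KO values lay inside the WT range. Means were 8.22 ± 0.11 in H2be-KO and 8.28 ± 0.27 in WT (SD, n = 6 each), a log2 difference of -0.06 with a 95% interval of -0.30 to 0.19 (exact permutation p = 0.649). Without WT replicate 4, its highest array, the difference was 7.7e-05.

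The basal keratins Krt5 and Krt14 both had lower means in H2be-KO, in neither case past the test. Krt5 read between 10.03 and 10.60 with a median of 10.33 in H2be-KO and between 10.30 and 10.65 with a median of 10.48 in WT. H2be-KO replicates 2, 3 and 5 lay below every WT array, and the other 3 lay among them. The log2 difference of Krt5 was -0.13 (SE 0.102, exact permutation p = 0.221), and -0.07 without H2be-KO replicate 3. Krt14 read 8.61, 8.60, 8.49, 8.80, 8.47 and 8.74 in H2be-KO replicates 1 to 6 and 8.74, 8.76, 8.92, 9.49, 8.51 and 8.81 in WT replicates 1 to 6. WT replicate 4 stood highest and WT replicate 5 stood among the H2be-KO values, with 2 H2be-KO arrays below every WT array. Means of Krt14 were 8.62 ± 0.13 in H2be-KO and 8.87 ± 0.33 in WT (SD, n = 6 each), which is 0.839-fold, a log2 difference of -0.25 with a 95% interval of -0.54 to 0.03 (exact permutation p = 0.0779). Without WT replicate 4 the difference was -0.13, and without WT replicate 5 it was -0.32 and passed the unadjusted threshold of limma. Its limma p adjusted over all probe sets was 0.753.

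Krt15, a keratin of slow-cycling basal cells, spread widely between arrays of the same genotype. It read 6.45, 5.97, 7.10, 7.98, 6.43 and 8.17 in H2be-KO replicates 1 to 6 and 7.71, 5.96, 7.44, 8.70, 6.67 and 8.30 in WT replicates 1 to 6. Replicates 4 and 6 were the 2 highest and replicate 2 the lowest in both genotypes. The means were 7.02 ± 0.90 in H2be-KO and 7.46 ± 1.02 in WT (SD, n = 6 each), and the log2 difference of -0.45 had a 95% interval of -1.43 to 0.53 (exact permutation p = 0.429). Leaving out 1 array moved it to values between -0.75 (without WT replicate 2) and -0.20 (without WT replicate 4), none of them past the test. The SD of Krt15 within the genotypes was larger than that of 99.6% of all probe sets tested.

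Itgb4, the beta4 integrin chain that anchors keratin filaments at the hemidesmosome, was the gene called lower. It read 7.69, 7.64, 7.88, 7.71, 7.67 and 7.89 in H2be-KO replicates 1 to 6 and 7.84, 7.76, 8.08, 8.41, 7.82 and 8.11 in WT replicates 1 to 6. H2be-KO replicates 1, 2, 4 and 5 were lower than any WT array and WT replicates 3, 4 and 6 were higher than any H2be-KO array, with the remaining values overlapping. Means were 7.74 ± 0.11 in H2be-KO and 8.001 ± 0.24 in WT (SD, n = 6 each), which is 0.837-fold, a log2 difference of -0.26 with a 95% interval of -0.49 to -0.02 (exact permutation p = 0.0325). The limma p was 0.0327 unadjusted and 0.753 adjusted over all probe sets. The unadjusted limma p passed 0.05 when any 1 of 7 arrays was left out: it was 0.0573, 0.0651, 0.0528 and 0.0602 without H2be-KO replicates 1, 2, 4 and 5, and 0.0601, 0.0703 and 0.0591 without WT replicates 3, 4 and 6. With limma array weights, which give less weight to arrays that deviate, the difference was -0.15 and the call was lost. The difference stayed between -0.31 and -0.18 over the fits that left out 1 array, and it was -0.28 and just short of the threshold without the H2be-KO arrays of high Amelx.

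Itga6, the integrin chain that pairs with beta4, gave no such difference. Its signal lay between 7.34 and 8.34 with a median of 7.96 in H2be-KO and between 7.31 and 8.39 with a median of 8.14 in WT. The ranges all but coincided, and replicate 2 was the lowest array in both genotypes. The log2 difference was -0.12 with a 95% interval of -0.54 to 0.30 (exact permutation p = 0.610), and the SD within the genotypes was larger than that of 95.4% of probe sets. The difference moved to -0.0013 when H2be-KO replicate 2 was left out and to -0.26 when WT replicate 2 was. Col17a1, the transmembrane collagen of the hemidesmosome, lay between 7.39 and 7.80 with a median of 7.61 in H2be-KO and between 7.59 and 8.09 with a median of 7.69 in WT. H2be-KO replicates 1, 3 and 5 were below every WT array, and WT replicates 3 and 4 were above every H2be-KO array. The log2 difference of Col17a1 was -0.17 (SE 0.110, exact permutation p = 0.149), and -0.11 without WT replicate 4.

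None of the surface proteins Cd44, Egfr and Icam1 passed the test, and Cd44 had the difference farthest from 0 of the 3. Cd44 read 9.09, 8.99, 8.99, 9.35, 9.20 and 9.10 in H2be-KO replicates 1 to 6 and 9.12, 9.26, 9.28, 9.63, 9.17 and 9.24 in WT replicates 1 to 6. H2be-KO replicates 1, 2, 3 and 6 were lower than any WT array, and replicate 4 was the highest array of each genotype. Means of Cd44 were 9.12 ± 0.14 in H2be-KO and 9.28 ± 0.18 in WT (SD, n = 6 each), a log2 difference of -0.16 with a 95% interval of -0.37 to 0.05 (exact permutation p = 0.104). Without WT replicate 4 the Cd44 difference was -0.09.

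Egfr was the only gene of the 10 with a higher mean in H2be-KO. It read 8.35, 8.48, 8.90, 8.52, 8.55 and 8.87 in H2be-KO replicates 1 to 6 and 8.42, 8.28, 8.93, 8.45, 8.40 and 8.92 in WT replicates 1 to 6. Replicates 3 and 6 stood above the other arrays in both genotypes. The log2 difference was 0.05 with a 95% interval of -0.24 to 0.34 (exact permutation p = 0.684), and its sign rested on single arrays: leaving out H2be-KO replicate 3 gave -0.0119, H2be-KO replicate 6 gave -0.0048 and WT replicate 2 gave -0.0107. Icam1 lay between 7.33 and 7.77 with a median of 7.53 in H2be-KO and between 7.22 and 7.92 with a median of 7.54 in WT. Its log2 difference was -0.01 with a 95% interval of -0.26 to 0.23 (exact permutation p = 0.907) and changed sign without H2be-KO replicate 1 or 2 or WT replicate 4 or 6, within -0.08 to 0.06.

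The 6 arrays with high Xist and the 6 with low Xist each held 3 arrays of each genotype, so the comparison could be repeated within each set. The Itgb4 difference was -0.16 in the arrays with high Xist and -0.36 in those with low Xist. For Krt14 the differences were -0.24 and -0.27, and for Krt15 they were -0.53 and -0.36. The arrays with low Xist include WT replicate 4, which read 9.49 for Krt14, against 8.51 and 8.81 in WT replicates 5 and 6. For Itgb4 it read 8.41, against 7.82 and 8.11. The fit within the arrays of low Xist was not repeated without WT replicate 4, so its differences for these genes may rest on that array. For Krt5 the difference was -0.25 in the arrays with high Xist and -0.02 in those with low Xist, and the change of the difference between the sets was not tested. The median over the 10 genes was -0.18 with high Xist and -0.11 with low Xist, and 0 of the 10 passed an unadjusted limma p of 0.05 in either set.

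Genes that work with these markers were described from lists drawn up by role, and the counts of each list stand against 1.77% of all probe sets lower and 3.78% higher. The rest of the hemidesmosome and its laminin footing (11 of 12 listed genes measured) held 0 lower and 0 higher probe sets at an unadjusted limma p under 0.05, with a median difference of -0.09. Lamb3, a chain of the laminin that the hemidesmosome binds, averaged 7.75 ± 0.24 in H2be-KO and 7.97 ± 0.12 in WT (SD, n = 6 each; exact permutation p = 0.0801). Itga3, another laminin-binding integrin chain, had a log2 difference of -0.20 (exact permutation p = 0.0801), while its usual partner Itgb1 had one of 0.16 (exact permutation p = 0.0931).

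Genes tied to p63 in stratified epithelia (15 of 16 listed genes, 16 probe sets) held 2 lower and 0 higher probe sets, with a median of -0.12, against the same 1.77% and 3.78% over all probe sets. Trp73, which encodes the p53-family relative p73, averaged 6.87 ± 0.14 in H2be-KO and 7.14 ± 0.24 in WT (SD, n = 6 each), a log2 difference of -0.27 (exact permutation p = 0.0411). Jag2, a Notch ligand, averaged 9.07 ± 0.14 in H2be-KO and 9.26 ± 0.14 in WT (SD, n = 6 each), a difference of -0.20 (exact permutation p = 0.0390). Pkp1 and Dsg3, both of the desmosomes that join keratinocytes to each other, had differences of -0.24 and -0.30 with exact permutation p of 0.0909 and 0.108, and Dsg3 lay close to the filter. Dsc3, also of the desmosomes and next by limma p, went the other way, with a difference of 0.22 (exact permutation p = 0.0887). Of the limma p adjusted over all probe sets, each of these genes had 0.753.

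Receptor signalling lists gave few calls. The ligands, relatives and adaptors of Egfr (12 of 13 listed genes) held 0 lower and 0 higher with a median of 0.01. The ligand Epgn had the smallest p among them, with a log2 difference of -0.18 (exact permutation p = 0.104). The Notch pathway (14 probe sets tested), which keeps horizontal basal cells quiescent through p63 in mice, held 1 lower, Jag2, and 0 higher, with a median of -0.08. Notch1 itself had a log2 difference of -0.25 (exact permutation p = 0.0909). Genes of hyaluronan synthesis and of the Cd44 linkers to the cytoskeleton (8 of 10 listed genes) held 0 in either direction, with a median of -0.05.

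Icam1 partners and NF-kappaB targets (13 of 14 listed genes) held 2 lower and 0 higher, with a median of -0.07. The members called were a pair of chemokines. Ccl2, which draws monocytes, averaged 7.31 ± 0.13 in H2be-KO and 7.58 ± 0.15 in WT (SD, n = 6 each), a log2 difference of -0.27 (exact permutation p = 0.0108). Cxcl1, which draws neutrophils, averaged 8.32 ± 0.18 in H2be-KO and 8.60 ± 0.22 in WT (SD, n = 6 each), a log2 difference of -0.28 (exact permutation p = 0.0368). Both had an adjusted limma p of 0.753 over all probe sets. Next by limma p, Tnfaip3 had a log2 difference of 0.23 (exact permutation p = 0.132) and Icam2 one of -0.18 (exact permutation p = 0.117). The leukocyte list held 0 lower and 0 higher of 9 probe sets tested, and its mean signal per array lay between 8.05 and 8.93 in H2be-KO and between 7.86 and 8.88 in WT.

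The dissection can also hold squamous and respiratory epithelium, which share basal cell genes. Other keratins (11 of 12 probe sets tested) held 0 calls in either direction, with a median of -0.14 and the smallest p in Krt4, a keratin of squamous mucosa (log2 difference -0.23, exact permutation p = 0.128). Markers of squamous differentiation (14 of 15 listed genes) held 2 lower and 0 higher, with a median of -0.15 and 13 of 14 differences below 0. Tgm1, the transglutaminase that crosslinks the cornified envelope, averaged 6.79 ± 0.20 in H2be-KO and 7.11 ± 0.19 in WT (SD, n = 6 each), a log2 difference of -0.32 (exact permutation p = 0.0238). Lor, which encodes the envelope protein loricrin, had a difference of -0.26 and was called by limma but not by the exact permutation test (p = 0.0693). The mean of the 14 squamous probe sets per array ran between 7.47 and 7.85 in H2be-KO and between 7.54 and 8.30 in WT, and all 14 passed the filter on low signal. Respiratory markers held 0 lower and 0 higher of 8, and their mean per array ran between 10.02 and 10.37 in H2be-KO and between 10.15 and 10.43 in WT. The part of squamous epithelium in the lower means of the basal keratins and Itgb4 was not tested.

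Globose basal cells, the active progenitors above the horizontal ones, gave 0 lower and 2 higher of 8 probe sets, with a median of 0.12. These were Gadd45g, a gene of neuronal differentiation, with a log2 difference of 0.29 (exact permutation p = 0.0108), and the proliferation gene Top2a with one of 0.32 (exact permutation p = 0.0801). The difference between the horizontal and globose lists was not tested.

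Covariation of the 10 genes was measured over the 12 arrays after removal of the genotype means, so that the difference between the means does not enter it. The 45 pairs had a median Pearson r of 0.58, with a range of -0.11 to 0.83 and 1 pair below 0. For comparison, the median r of each gene with all probe sets tested lay between -0.10 and -0.04. Arrays share their normalisation and each gene enters 9 pairs, so the pairs are not independent. With 100000 permutations of arrays within genotype and Benjamini-Hochberg adjustment over the 45 pairs, 4 pairs had an adjusted p under 0.05 by Pearson r, 6 by Spearman rho and 3 by both. The count by Pearson r depended on the settings: it was 14 with quantile normalization, 13 with genotype means kept, 2 without H2be-KO replicate 1 or WT replicate 1, 2, 5 or 6, 7 without H2be-KO replicate 4 and 10 without H2be-KO replicate 3 or 5.

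The 3 pairs called by both measures joined keratins to each other and to Col17a1, and Trp63 to Icam1. Krt5 and Krt14, which form 1 filament, had r = 0.716 (permutation p = 3e-04, adjusted 0.00945) and rho = 0.867 (adjusted p = 0.0219). Krt14 and Col17a1 had r = 0.820 (permutation p = 0.00042, adjusted 0.00945) and rho = 0.853 (adjusted p = 0.0219). Without the 2 arrays farthest from the median, r was 0.822 for the pair of keratins and 0.83 for Krt14 with Col17a1. Trp63 and Icam1 had r = 0.828 (permutation p = 0.0031, adjusted 0.0349) and rho = 0.839 (adjusted p = 0.0325), with r = 0.644 without the 2 farthest arrays. Within the arrays of high Xist these 3 pairs had r = 0.833, 0.738 and 0.866, and within those of low Xist r = 0.884, 0.926 and 0.820. Krt15 with Itga6 was called by Pearson r alone (r = 0.815, permutation p = 0.0024, adjusted 0.0349, without the 2 farthest arrays 0.809), with rho = 0.720 (adjusted p = 0.0618).

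**Figure D3:**
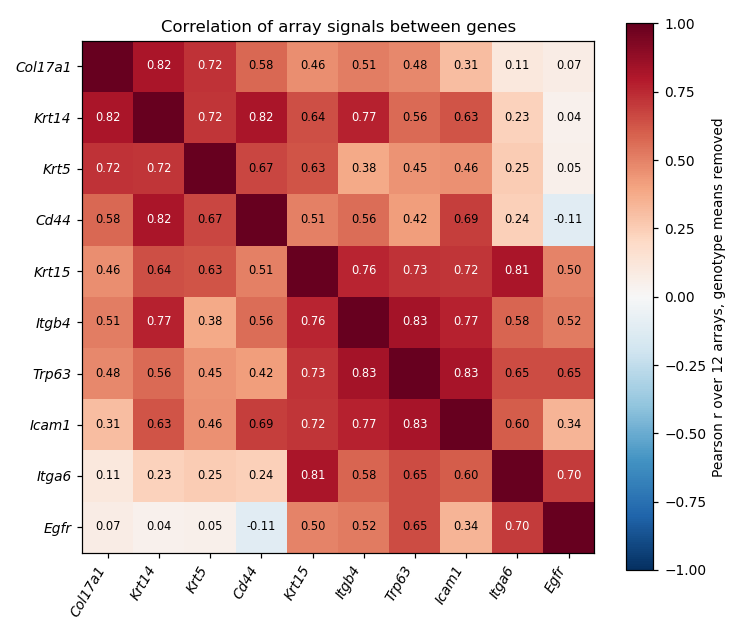
Pearson correlation between the array signals of each pair of the 10 genes over 12 arrays, genotype means removed, with red for positive and blue for negative r. Krt5, Krt14, Col17a1 and Cd44 form a block at upper left with r of 0.58 to 0.82, Krt15, Itgb4, Trp63, Icam1 and Itga6 form a block with r of 0.58 to 0.83, and Egfr has r of 0.04 to 0.07 with Col17a1, Krt14 and Krt5.

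Seen over the whole matrix, the genes fell into blocks, which were picked out after the values were seen and carry no test. Krt5, Krt14, Col17a1 and Cd44 had a median r of 0.72 over 6 pairs. Trp63, Itgb4, Icam1, Krt15 and Itga6 had a median of 0.74 over 10 pairs, while the 20 pairs between the blocks had a median of 0.47. Egfr had low r with the first block (0.04 with Krt14, 0.05 with Krt5, 0.07 with Col17a1 and -0.11 with Cd44). Its r with the second was higher, at 0.34 with Icam1, 0.50 with Krt15, 0.52 with Itgb4, 0.65 with Trp63 and 0.70 with Itga6. Several of the higher values rested on WT replicate 4. Without that array, r fell to 0.519 for Krt14 with Cd44, against 0.817 with it, to 0.405 for Krt14 with Itgb4, against 0.772, and to 0.02 for Itgb4 with Cd44, against 0.56. Other values rose without it, to 0.969 for Itgb4 with Egfr, against 0.522, and to 0.848 for Trp63 with Egfr, against 0.653. Krt5 with Krt14 rose to 0.856, against 0.716. The median over the 45 pairs was 0.41 without WT replicate 4, 0.32 within the arrays of high Xist and 0.66 within those of low Xist, which include WT replicate 4.

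The promoter windows of Krt5 and Col17a1 are shown, from RefSeq on GRCm38.p6 and reading from 250 bases before to 50 bases after the transcription start. Both genes covaried with Krt14, and theirs are the windows that held the half-site described below. A link between that site and the covariation was not tested. Windows for 6 of the 10 genes were at hand (Krt5, Krt14, Col17a1, Egfr, Cd44 and Icam1). Capitals mark a match to the half-site of the p53 family, the kind of site p63 binds, and, in Col17a1, the letters TATAAA. Krt5 lies on the reverse strand with its window at chr15:101712856-101713155, and Col17a1 lies on the reverse strand with its window at chr19:47691993-47692292.
Krt5: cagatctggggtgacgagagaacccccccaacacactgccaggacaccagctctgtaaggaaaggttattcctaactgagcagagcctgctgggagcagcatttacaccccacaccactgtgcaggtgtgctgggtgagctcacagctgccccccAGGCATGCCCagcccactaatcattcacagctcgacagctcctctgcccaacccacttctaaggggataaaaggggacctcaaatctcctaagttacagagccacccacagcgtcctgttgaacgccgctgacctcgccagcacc
Col17a1: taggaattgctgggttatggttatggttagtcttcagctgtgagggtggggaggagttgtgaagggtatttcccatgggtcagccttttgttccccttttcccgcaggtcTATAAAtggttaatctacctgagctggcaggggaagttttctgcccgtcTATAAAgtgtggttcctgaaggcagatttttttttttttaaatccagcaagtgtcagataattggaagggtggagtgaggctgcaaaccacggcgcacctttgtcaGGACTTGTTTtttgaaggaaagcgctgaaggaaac

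The half-site of the p53 family, searched on both strands as a consensus of letters with no mismatch allowed, was found in 2 of the 6 windows. It was found in 8.36% of all 32851 promoter windows of the same length. Those 2 are the windows shown, and the windows of Krt14, Egfr, Cd44 and Icam1 held no match to it. In Krt5 it read AGGCATGCCC and lay at positions -95 to -86 from the start, and in Col17a1 it read GGACTTGTTT and lay 16 to 25 bases after it. The letters TATAAA were in 2 of the 6 windows (Col17a1 and Icam1) and in 13.6% of all windows. The AP-1 motif TGANTCA was in 0 of the 6 and in 7.81% of all windows. An exact consensus of the NF-kappaB motif was in 1 of the 6 (Krt14, whose window lies inside the annotated span of the gene) and in 4.51%. Sites that depart from a consensus by 1 letter were not counted, so a window without a match, such as that of Icam1 for NF-kappaB, is not shown to lack a site. A match describes letters and was not tested for binding. Krt14 and Krt15 lie in the same keratin cluster, with 2 protein-coding genes between them, Krt19 and Krt9.

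The same measure was taken between each gene and the mean signal of 10 lists of other cell types, 100 relations in all. Both Pearson r and Spearman rho gave an adjusted p under 0.05 in 3 of them. Krt15 followed the squamous list (r = 0.885, permutation p = 1e-04, adjusted 0.005, rho = 0.895, adjusted p = 0.0133), and r was 0.913 without the 2 farthest arrays and 0.918 without WT replicate 4. It also followed the other keratins (r = 0.865, permutation p = 0.00035, adjusted 0.0117, rho = 0.937, adjusted p = 0.0095), with r = 0.877 without the 2 farthest arrays. Within the arrays of high and of low Xist, r of Krt15 with the squamous list was 0.850 and 0.914. In H2be-KO replicates 4 and 6 and WT replicates 4 and 6, in which Krt15 stood highest, the squamous mean was 7.85, 7.81, 8.30 and 7.94, above that of the other 8 arrays. The part of squamous cells in the spread of Krt15 was not tested further. By rho alone, Krt15 (rho = 0.846, adjusted p = 0.0334) and Itgb4 (rho = 0.783, adjusted p = 0.0338) were called with the respiratory markers. Itgb4 was also called by rho alone with the other keratins (rho = 0.846, adjusted p = 0.0334). Pearson r of these relations was 0.785, 0.709 and 0.822, and without WT replicate 4 it was 0.722, 0.558 and 0.593. The part of respiratory cells in these signals was not tested.

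Krt14 related to these lists in another way. Its r with the other keratins was 0.907 (permutation p = 0.00117, adjusted 0.0234) and 0.760 without WT replicate 4, but rho had an adjusted p of 0.107. This r was -0.08 within the arrays of high Xist and 0.965 within those of low Xist, which include WT replicate 4. The r of Krt14 with the squamous list was 0.811 (adjusted permutation p = 0.064) and 0.519 without WT replicate 4. In that array Sprr1a, Sprr3 and Krt17, genes of squamous and stressed epithelium named after their values were seen, read 10.45, 9.62 and 9.63, each the highest of the 12 arrays. WT replicate 4 was thus the highest array for the squamous mean and for Krt14, Krt15, Itgb4 and Cd44. It was also the highest for Trp63, Krt5, Icam1 and Col17a1, but not for Itga6 and Egfr.

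**Figure D4:**
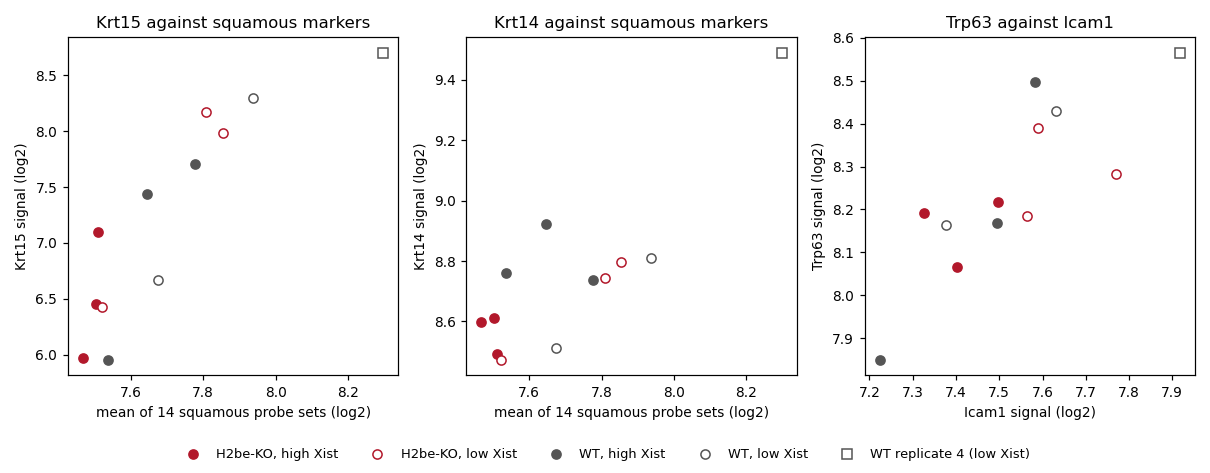
Array signal (log2) of Krt15 and of Krt14 against the mean of 14 squamous probe sets, and of Trp63 against Icam1, with 1 point per array, red for H2be-KO and grey for WT. Krt15 climbs along the squamous mean over the whole range, Krt14 does so mainly through WT replicate 4 (open square, at 8.30 and 9.49), and genotype means are not removed here.

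Egfr followed a different list. Its r with the smooth muscle and myoepithelial list (Acta2, Myh11, Cnn1, Mylk and Tagln) was 0.865 (permutation p = 2e-05, adjusted 0.002), with rho = 0.902 (adjusted p = 0.003), and r was 0.843 without the 2 farthest arrays and 0.923 within the arrays of high Xist and of low Xist alike. The mean of that list lay between 8.80 and 9.30 in H2be-KO and between 8.76 and 9.16 in WT, and 0 of its 5 probe sets were called in either direction. Itga6 had r = 0.854 with the endothelial list (permutation p = 0.00077, adjusted 0.0193), and 0.659 without the 2 farthest arrays, while its rho had an adjusted p of 0.0749. The part of these cell types in the signals of Egfr and Itga6 was not tested.

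The probe sets most like the basal cell genes over the 12 arrays, as a description, were mostly not basal cell genes. With Krt5 the 5 highest r were those of Atp5d, Tspo, S100a16, Ccdc121 and Rxrb, at 0.88 to 0.90. With Krt14 they were 2 probe sets of the ribosomal protein gene Rpl36 (r of 0.94 and 0.92), Gprc5b, Urod and Zfp36l1. With Itgb4 they were Dnah6, Pfdn5, Dvl3, Kif26b and Lrp5, at 0.93 to 0.96. With the mean of the 10 standardised profiles they were 4 probe sets of Dnah3, an axonemal dynein of motile cilia, at 0.94 to 0.97, and Spata18, at 0.94. Among all probe sets tested, 0.437% had an r with Krt14 at least as high as Col17a1 had, 0.760% had one with Krt5 at least as high as Krt14 had, and 0.220% had one with Trp63 at least as high as Itgb4 had.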

How the data were processed

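RNA from whole MOE of 6 H2be-KO and 6 WT samples was measured on Affymetrix Mouse Gene 1.0 ST arrays. Per the methods, the authors used Affymetrix Expression Console for probe summarisation (IterPLIER) and sketch-quantile normalisation after an outlier check, and the values they deposited are log2 signals of 35556 probe sets per array. Such normalisation removes a change shared by most transcripts. The 6612 control probe sets were left out. The sources used here gave neither tool versions nor the build of the array annotation.

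The filter kept 28151 probe sets whose log2 signal averaged above 5. A linear model with genotype as its term was fitted with lmFit and eBayes in limma 3.58.1 (R 4.3.3), with p-values adjusted by Benjamini-Hochberg over all of them, and single genes carry a two-sided exact permutation p over all 924 choices of 6 of 12 arrays, whose smallest value is 0.0022. Called means an unadjusted p under 0.05. Correlations used Python 3.11.15 and scipy 1.17.1, with two-sided permutation p. All members are named, with up to 4 members of smallest p per list and, in the p63 list, Dsc3 after them. The 5 probe sets most like Krt5, Krt14, Itgb4 and the mean profile are named too. The members and lists were chosen with earlier results of these data known. On simulated data with the comparison's 28151 probe sets, the fit found 92.6% of log2 shifts of 1 (adjusted p under 0.05) and 91.8% of shifts of 0.5 (unadjusted p). The simulated noise was drawn independently for each probe set and array, without the covariation of the real arrays. These rates are averages over probe sets picked at random, and they need not hold for a gene of wide spread such as Krt15 (SE 0.459). The number of arrays limits the precision, and the median SE of a log2 difference was 0.112. Groups came from the sample titles. Alternatives covered the filter, a floor, scaling, the replicate number as a block, array weights, moderation, Y-linked signal, averaging by symbol and arrays left out.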

Additional observations from a re-analysis of the deposited data

Results flagged for a closer look

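Cd44 in WT replicate 4 stood apart from the other WT arrays. It read 9.63, with the next highest WT array at 9.28, a gap of 0.672 of the range of the 6 arrays, which is above Dixon's 95% limit for 6 values. It was 1 of 20 groups examined (10 genes in each genotype), and chance alone marks about 1 group in 20. The same array had the highest signal of all 12 for Trp63, Krt5, Krt14, Krt15, Icam1, Itgb4, Col17a1 and the squamous list.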

How the results depend on the processing

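The median difference of the 10 genes was below 0 under every alternative run, between -0.20 and -0.10 with 1 array left out. The signs and calls of the single genes were kept in 234 of 260 gene and setting combinations, with 11 weaker, 4 past the threshold anew and 11 of opposite sign. The 11 weaker results were all those of Itgb4, the only gene called in the main fit. The other genes were not called there, so a kept call mostly meant a gene that stayed uncalled. The number of the 10 genes called lower was 1, against 3 with the replicate block, 2 with trend and robust moderation, 0 with array weights, 0 without both arrays of high Amelx, and 0 within the arrays of high Xist or of low Xist, which were chosen after seeing the data and hold fewer arrays. With 1 array left out it ranged from 0 to 2, and genes called higher stayed at 0. Trp63 turned to 0.0402 and Icam1 to 0.0629 with array weights, and Icam1 to 0.00061 without both arrays of high Amelx. With 1 array left out, the range was -0.143 to 7.7e-05 for Trp63, -0.0768 to 0.0620 for Icam1 and -0.0119 to 0.119 for Egfr. These genes had 95% intervals across 0, and the cause was not tested.

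All probe sets called lower and higher numbered 498 and 1065. They numbered 951 and 2039 with the replicate block, 1405 and 2694 with array weights, 329 and 721 within the arrays of high Xist, and 274 and 321 within those of low Xist. Lower calls numbered 899 with quantile normalization, and higher calls numbered 624 after averaging by symbol, which leaves fewer rows. With 1 array left out, lower calls ranged from 313 to 1552 and higher calls from 513 to 2265. The share of calls that were higher was 68.1%, against 47.9% with quantile normalization and 53.8% with median centring, and the Itgb4 difference was -0.27 under both. Pairs of the 10 genes called correlated by Pearson r numbered 4, against 13 with genotype means kept, 14 with quantile normalization and 2 to 10 with 1 array left out. The median r was 0.41 to 0.65 with 1 array left out and 0.32 within the arrays of high Xist.

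The labels number the replicates 1 to 6 in each genotype without saying that a number is shared. Same-numbered arrays deviated together at r of -0.02 to 0.58 over all probe sets, other pairs at -0.44 to 0.39, and 3 of 6 H2be-KO arrays correlated best with their own number. The numbers were not treated as pairs because the labels do not link them, and whether they are shared was not tested. The replicate block would add Krt14 and Krt15 to Itgb4, with a log2 difference of -0.25 and -0.45. For Krt15 the SE was 0.152 with the block and 0.459 without it. Signals carry no counts, so the spread over arrays sets what can be seen.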
